A study of Homo sapiens with 17 samples.

Results

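The genes TRIM28, SETDB1, MORC2, MPHOSPH8, PPHLN1, DNMT1, DNMT3A, DNMT3B, UHRF1 and HELLS, 10 in all, silence repeats or carry DNA methylation, and they were followed across the 17 libraries of this study. They were chosen by name, for their role in silencing, with earlier results of these data known. Their gene rows were read from the count table of each library by Ensembl identifier, and all 10 were found among the 62754 genes of the tables. All 10 passed the filter on low counts that left 19473 genes to test.

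The libraries came from IMR90 ER:RAS cells, a line of human lung fibroblasts infected with the retroviral vector pLNC ER:RAS-neo. Its RAS oncogene is joined to the hormone-binding part of the oestrogen receptor. Adding 4-hydroxytamoxifen (4OHT) therefore switches RAS on and the cells become senescent, and DMSO is the solvent control. The cells were reverse transfected with a non-targeting siRNA (siNT) or with an siRNA against SMARCA4 (siSMARCA4) before 4OHT or DMSO was added. SMARCA4 (BRG1) is a motor subunit of SWI/SNF, a complex that moves nucleosomes.

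The labels give 3 groups, with 5 libraries of DMSO siNT and 6 each of 4OHT siNT and of 4OHT siSMARCA4. All 3 groups carry the ER:RAS construct and all were transfected with an siRNA. No DMSO siSMARCA4 library was analysed here, so the knockdown was compared within 4OHT only. A library name such as 4-2VM holds the number of an siRNA (2 or 4), a replicate and the letters V or VM, which no label explains. VM stands on 6 of 6 libraries in 4OHT siNT, 3 of 6 in siSMARCA4 and 3 of 5 in DMSO. The labels do not say that replicates came from separate cultures, so p-values measure the spread between these libraries, which may be technical.

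Library totals ranged from 39109479 to 68978119 counts. Levels are given as CPM, the counts of a gene per 1e6 counts of a library after TMM scaling, with the SD between libraries. SMARCA4 itself was 198 ± 19.2 CPM in DMSO siNT, 268 ± 13.2 CPM in 4OHT siNT and 88.1 ± 22.8 CPM in 4OHT siSMARCA4. Every siSMARCA4 library lay below every other library, and the highest of them (127 CPM) was library 4-2V. The fibroblast label was checked against 6 markers: VIM stayed between 5090 and 7156 CPM in every library, COL1A1 was 10772, 6294 and 2293 CPM in DMSO siNT, 4OHT siNT and 4OHT siSMARCA4, and DCN was 549, 15.8 and 9.19 CPM. Markers of other cell types were looked up too. Of the epithelial markers, EPCAM was 0.121 to 1.25 CPM, KRT5 had 0 counts over all libraries and CDH1 had 22. Of the endothelial markers, PECAM1 and VWF summed to 0.798 to 1.83 CPM in DMSO, 3.44 to 5.50 CPM in 4OHT siNT and 1.73 to 4.23 CPM in siSMARCA4, most of it VWF, and CDH5 had 26 counts over all libraries. PECAM1 was 0.0145, 0.936 and 0.341 CPM in these groups and was called higher with 4OHT, from 4 counts over the DMSO libraries. Of the leukocyte markers, CD68, a lysosomal protein, was 22.5, 25.9 and 25.2 CPM in the 3 groups, whereas PTPRC had 50 counts over all libraries and CD3E had 1. The part of these transcripts in the results was not tested.

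Silencing of repeats begins, for many endogenous retroviruses, with KRAB zinc finger proteins that recognise the DNA and recruit TRIM28 (KAP1). TRIM28 brings in SETDB1, which methylates histone H3 at lysine 9 (H3K9). The HUSH complex, built from TASOR, MPHOSPH8 and PPHLN1, reads that mark and works with SETDB1 and the ATPase MORC2, and it acts on young L1 elements among other targets. DNA methylation is a further layer: DNMT3A and DNMT3B set it on unmethylated DNA, while DNMT1 copies it to the new strand after replication, guided by UHRF1, which reads hemimethylated DNA. HELLS is a helicase that opens nucleosomal DNA to the methylation machinery. DNMT1, UHRF1 and HELLS work at the replication fork or are made mainly in dividing cells, which is why a panel of S-phase and mitosis genes is given beside them.

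The 4OHT siNT libraries were compared with DMSO siNT to ask which silencers change in senescence. HELLS and UHRF1 fell furthest, to 16.8% and 35.4% of their level in DMSO. DNMT3B fell to 49.2% and PPHLN1 and DNMT1 fell less, to 78.8% and 83.5%. MORC2 rose 1.42-fold. TRIM28, SETDB1, MPHOSPH8 and DNMT3A did not pass the test. In all, 5 members were lower and 1 was higher of 10 tested (edgeR's quasi-likelihood test, Benjamini-Hochberg adjusted p under 0.05 over all genes). Of all genes tested, 54.4% were called in this comparison, 27.4% lower and 27% higher, so that a count of 6 of 10 is close to that of genes in general. The median log2 fold change of the 10 was -0.15, beside 0.00 for all genes.

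**Figure D1:**
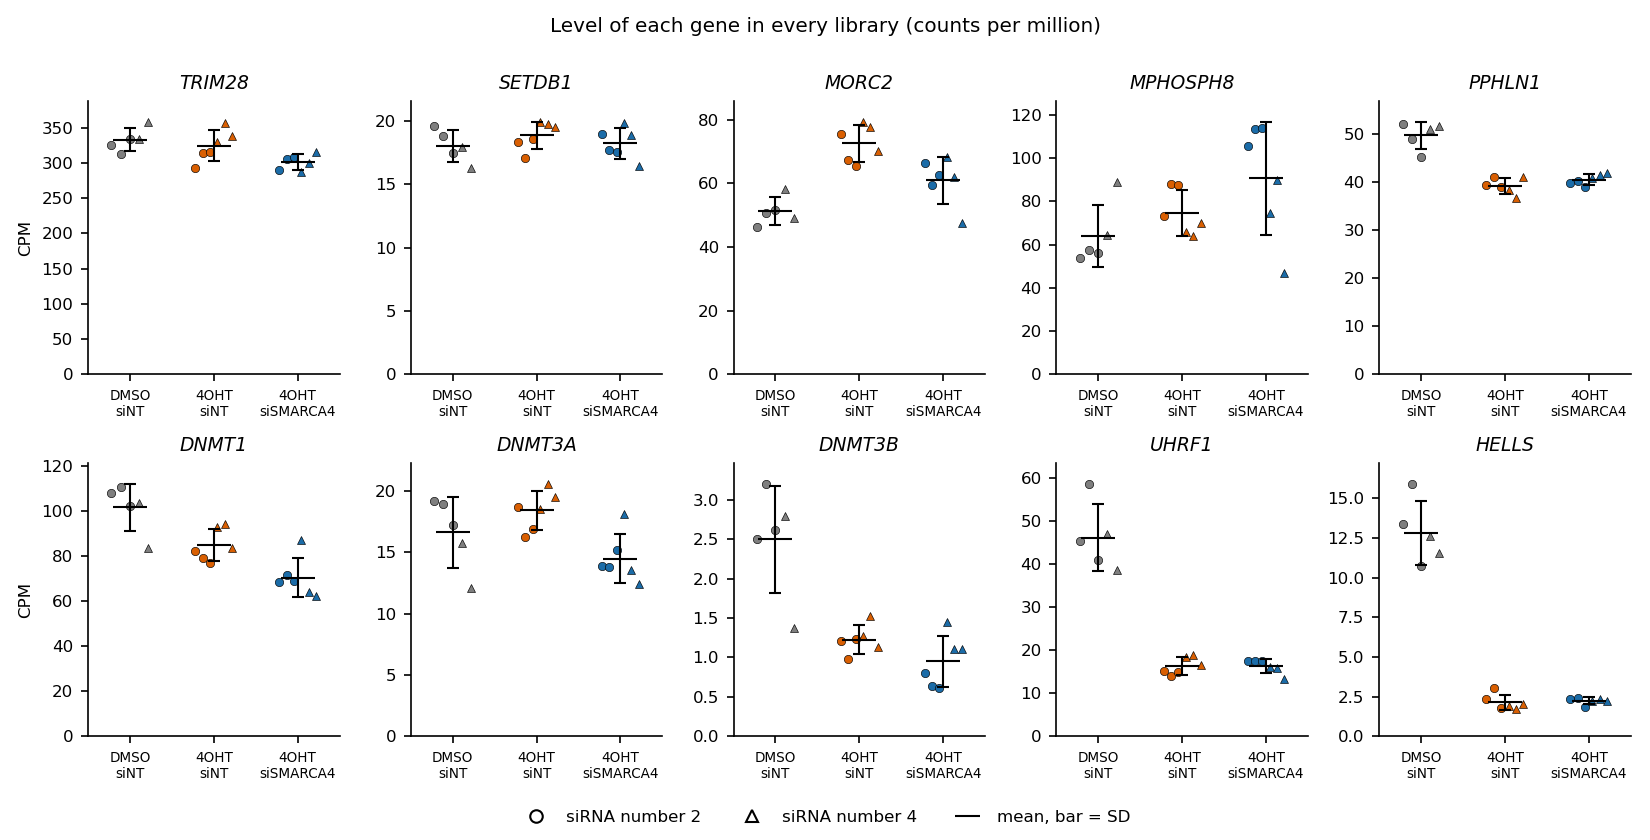
Level of each of the 10 genes in every library, in CPM (linear axes that start at 0, a different range for each gene). Circles and triangles are libraries with siRNA number 2 and 4, and the black line and bar give the mean and SD of a group. UHRF1 and HELLS lie far lower in both 4OHT groups than in DMSO, whereas TRIM28 and SETDB1 stay within one range.

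HELLS and UHRF1 are described first. HELLS (chr10:94545329-94613905, GRCh38, plus strand) was 13.4, 15.9, 10.7, 12.6 and 11.5 CPM in the 5 DMSO libraries. In 4OHT siNT it ranged from 1.74 to 3.03 CPM with a median of 1.95. The groups were far apart, the highest 4OHT siNT library standing at 3.03 CPM and the lowest DMSO library at 10.7 CPM. The log2 fold change was -2.58 (SE 0.14, edgeR adjusted p = 3.67e-11). A library held 69 to 170 HELLS counts in 4OHT siNT and 617 to 800 in DMSO.

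UHRF1 (chr19:4903080-4962154, plus strand) was 45.4, 58.8, 40.9, 47.2 and 38.7 CPM in DMSO, and 14.0 to 19.0 CPM with a median of 15.9 in 4OHT siNT. No library of one group reached the range of the other. For UHRF1 the log2 fold change was -1.50 (SE 0.11, edgeR adjusted p = 1.66e-09). With SMARCA4 knockdown both genes lay in the range of the senescent libraries or close to it. UHRF1 ranged from 13.3 to 17.6 CPM (median 16.9) and HELLS from 1.84 to 2.42 CPM (median 2.29) in siSMARCA4, again below every DMSO library. Together with PPHLN1 these were the 3 members of which the siSMARCA4 libraries did not overlap with DMSO, where 36.3% of all genes did not overlap.

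All 13 S-phase and mitosis markers fell with 4OHT as well. Their summed level was 448 to 649 CPM in DMSO, 79.7 to 84.8 CPM in 4OHT siNT and 71.6 to 93.2 CPM in siSMARCA4. MKI67, which marks cycling cells, changed by -5.68 on the log2 scale, CDK1, the mitotic kinase, by -5.44, TOP2A, the topoisomerase of dividing cells, by -4.60 and cyclin A2 (CCNA2) by -4.07. Their part in the fall of UHRF1 and HELLS was not tested. In bulk RNA, fewer cells that make a transcript and less transcript per cell cannot be told apart.

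The log2 CPM of some genes followed these members closely over the 17 libraries. The closest to HELLS were CCNB2, a mitotic cyclin (Pearson r = 0.993), ASPM, of the spindle pole (0.992), and USP1, a deubiquitinase of DNA repair (0.990). The closest to UHRF1 were WDR62, of the spindle pole (0.991), KIFC1, a mitotic kinesin (0.990), and EXO1, a DNA repair exonuclease (0.987). UHRF1 and HELLS themselves had r = 0.95 over the 17 libraries and -0.01 once each group was centred on its mean. These are descriptions over 17 libraries of 3 groups, and a large difference between groups alone gives a high r.

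The upstream sequence of the members was searched for the letters that E2F factors, the regulators of S-phase genes, bind. The search used the 250 bases before each RefSeq start site (GRCh38.p14) and the letters TTTCCCGC, TTTGGCGC, TTTCGCGC and TTTGCCGC with their reverse complements. Windows were found for 9 members, 18 in all, and TRIM28 had none in the table. Of these windows 3 held the letters, and they belonged to 2 genes, UHRF1 and HELLS. Of all 35116 windows of the same length 2.79% did. The S-phase and mitosis markers had 13 windows, which came from 11 of these genes, and 5 of the windows held the letters. The sites are shown as 30 bases each, 5′ to 3′ on the plus strand, with the letters in capitals, because they belong to the 2 members that fell furthest.
UHRF1, chr19:4909471-4909500: caaatgccgagttttcGCGGGAAAaaaatc
UHRF1, chr19:4909973-4910002: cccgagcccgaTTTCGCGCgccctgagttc
HELLS, chr10:94545701-94545730: aaccgcaagctGCGCCAAAtctcgcgcagc
HELLS, chr10:94545758-94545787: aggtatcgcgagatgacaggatTTTCCCGC

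The HELLS sites began 76 and 8 bases before the start and the UHRF1 sites 14 and 160 bases before a start each. In GENCODE 44 the stretches shown for both HELLS sites overlap annotated exon and UTR of HELLS. That of the first UHRF1 site overlaps annotated exon, UTR and coding sequence of UHRF1, and that of the second overlaps no exon of the gene. The windows of DNMT1, DNMT3A and DNMT3B did not hold these letters. A match of letters is a description of the sequence and not evidence of binding. The shorter letters CCAAT or ATTGG stood in 6 of the 18 member windows, close to the 32.0% of all windows, and in 11 of the 13 windows of the S-phase and mitosis markers. The letters TTTGAA or TTCAAA, named the CHR element in cell cycle promoters, stood in 1 member window, of PPHLN1, in 4 of the 13 marker windows and in 13.3% of all windows.

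DNMT1 (chr19:10133342-10231286, minus strand), the maintenance methyltransferase, was 108, 111, 102, 104 and 83.6 CPM in DMSO and 76.7 to 94.0 CPM (median 82.9) in 4OHT siNT. DMSO library 4-3VM lay inside the 4OHT siNT range and the other 4 DMSO libraries lay above it. The log2 fold change was -0.26 (SE 0.09, edgeR adjusted p = 0.0220). The call held in 20 of 23 alternatives and was lost, among others, when V or VM entered the fit as a covariate (-0.19, edgeR adjusted p = 0.0830) and with the siRNA number 4 libraries alone (-0.10, edgeR adjusted p = 0.643). The gene S1PR2 overlaps DNMT1 on the same strand, so reads may have been split between them where exons are shared. HELLS and PPHLN1 also overlap lncRNA genes, which code for no protein, on the same strand.

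DNMT3B (chr20:32762385-32809359, plus strand), a de novo methyltransferase, had the fewest counts of the members, 31 to 161 in a library. It was 2.50, 3.20, 2.62, 2.79 and 1.38 CPM in DMSO and 0.979 to 1.53 CPM (median 1.22) in 4OHT siNT. Library 4-3VM of DMSO was again the one inside the other group's range. For DNMT3B the log2 fold change was -1.02 (SE 0.23, edgeR adjusted p = 0.000918). DNMT3A (chr2:25227855-25342590, minus strand), the other de novo enzyme, was 19.1, 19.0, 17.2, 15.8 and 12.1 CPM in DMSO and 16.3 to 20.6 CPM (median 18.6) in 4OHT siNT. Its groups overlapped and the log2 fold change was 0.15 (95% interval -0.10 to 0.39, edgeR adjusted p = 0.301). It was called higher in 2 of 23 alternatives, one of them VM libraries alone (0.27, edgeR adjusted p = 0.0478), and the value ran from -0.13 with siRNA 2 libraries alone to 0.44 (edgeR adjusted p = 0.0709) with siRNA 4 libraries alone.

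Library 4-3VM of DMSO had the lowest DNMT1, DNMT3A, DNMT3B, UHRF1 and SETDB1 and the highest MPHOSPH8 and TRIM28 of its group. Without it the same 5 members were lower and the same 1 was higher, and the log2 fold changes of DNMT1 and DNMT3B were -0.32 and -1.18.

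MORC2 (chr22:30925130-30968774, minus strand), the ATPase that works with HUSH, was the member that rose. It was 46.2, 50.8, 51.7, 58.3 and 49.2 CPM in DMSO and 65.4 to 79.5 CPM (median 72.8) in 4OHT siNT, with no overlap between the groups. Its log2 fold change was 0.50 (SE 0.09, edgeR adjusted p = 9.83e-05). PPHLN1 (chr12:42238447-42459715, plus strand), the periphilin subunit of HUSH, moved the other way. It was 52.0, 48.9, 45.1, 51.0 and 51.5 CPM in DMSO and 36.6 to 41.0 CPM (median 39.1) in 4OHT siNT, again with no overlap. Its log2 fold change was -0.34 (SE 0.06, edgeR adjusted p = 3.83e-05). Of the 10 members, 4 (MORC2, PPHLN1, UHRF1 and HELLS) had libraries that did not overlap between 4OHT siNT and DMSO, where 39.6% of all genes did not.

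MPHOSPH8 (chr13:19633659-19673441, plus strand), the subunit of HUSH that binds methylated H3K9, was 53.7, 57.7, 56.2, 64.4 and 88.8 CPM in DMSO and 64.1 to 88.0 CPM (median 71.7) in 4OHT siNT. DMSO library 4-3VM, at 88.8 CPM, stood above all other libraries of both groups, and 4-2VM, at 64.4 CPM, lay inside the 4OHT siNT range. The log2 fold change was 0.22 (95% interval -0.17 to 0.62, edgeR adjusted p = 0.342). With the siRNA number 2 libraries alone it was 0.54 (edgeR adjusted p = 0.000308), and with those of number 4 it was -0.25 (edgeR adjusted p = 0.434).

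TRIM28 (chr19:58544064-58550722, plus strand), the co-repressor that KRAB zinc finger proteins recruit, was 326, 313, 334, 334 and 359 CPM in DMSO and 293 to 357 CPM (median 323) in 4OHT siNT. SETDB1 (chr1:150926263-150964744, plus strand), its H3K9 methyltransferase, was 19.6, 18.8, 17.5, 18.0 and 16.3 CPM and then 17.1 to 19.9 CPM (median 19.0). The ranges of both genes overlapped between the groups. Their log2 fold changes were -0.04 (95% interval -0.17 to 0.09) and 0.07 (95% interval -0.08 to 0.21), with edgeR adjusted p = 0.638 and 0.463. These intervals leave room for small changes in either direction.

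**Figure D2:**
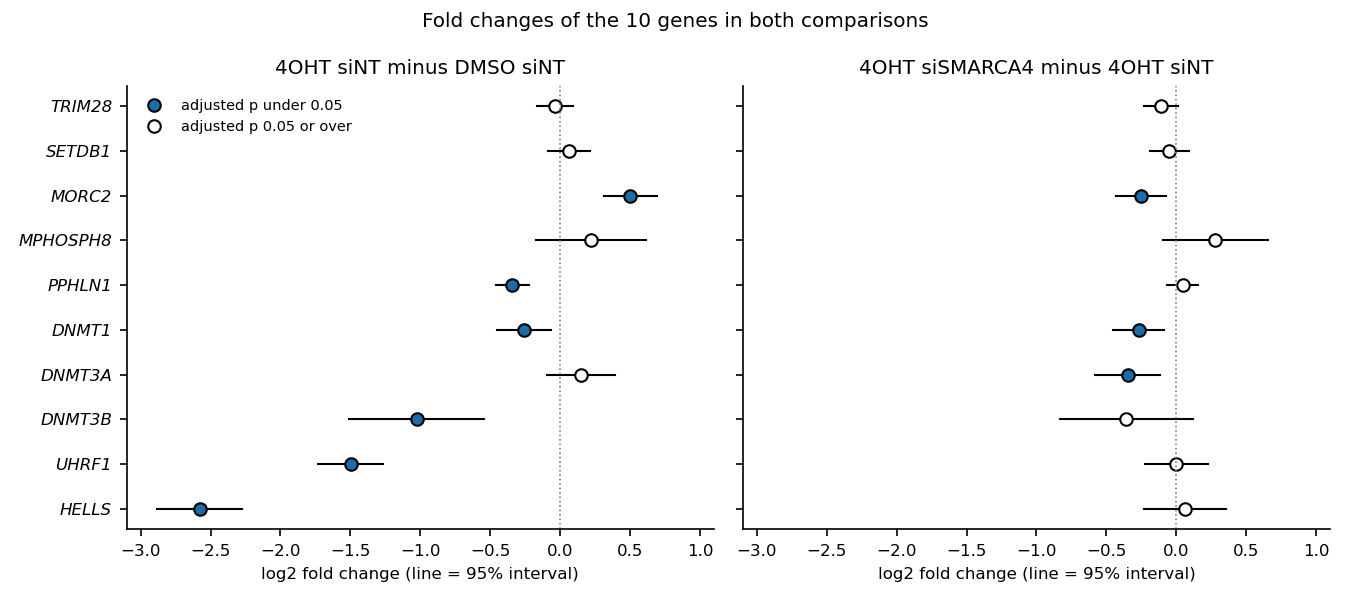
Log2 fold changes of the 10 genes with their 95% intervals, for 4OHT siNT against DMSO siNT (left) and 4OHT siSMARCA4 against 4OHT siNT (right), on the same axis. Filled points have an adjusted p under 0.05. The left panel reaches -2.58 for HELLS, whereas every value on the right lies between -0.36 and 0.28. Both panels use the same 4OHT siNT libraries.

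SMARCA4 knockdown was compared with siNT within 4OHT to ask whether the silencers differ where the remodeller is depleted. The differences were small. DNMT3A, DNMT1 and MORC2 were lower, at 78.7%, 83.0% and 84.1% of their siNT level, and no member was higher. That makes 3 of 10 lower, beside 13.8% of all genes lower, 10.4% higher and 24.2% called in all. No member had libraries that did not overlap between the 2 groups, where 12% of all genes did not. The median log2 fold change of the 10 was -0.08, beside -0.02 for all genes. This comparison shares its 4OHT siNT libraries with the one above, so the 2 sets of values are not independent.

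DNMT3A ranged from 12.4 to 18.1 CPM (median 13.8) in siSMARCA4. In 4OHT siNT it had ranged from 16.3 to 20.6 CPM. Of the siSMARCA4 libraries 5 lay below every siNT library and library 4-2V, the one with the most SMARCA4 left, lay inside their range. For DNMT3A the log2 fold change was -0.35 (SE 0.11, edgeR adjusted p = 0.0290).

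DNMT1 ranged from 62.4 to 87.0 CPM (median 68.7) in siSMARCA4, against 76.7 to 94.0 CPM in siNT. The same library 4-2V, at 87.0 CPM, was the one that reached the siNT range. The log2 fold change was -0.27 (SE 0.09, edgeR adjusted p = 0.0318). Without library 4-2V it was -0.34 for DNMT1 and -0.42 for DNMT3A, with edgeR adjusted p = 0.00451 and 0.00749. That library was the highest of its group for both genes, so leaving it out lowers the level of the group. MORC2 ranged from 47.5 to 68.4 CPM (median 62.2) in siSMARCA4, against 65.4 to 79.5 CPM in siNT, and its log2 fold change was -0.25 (SE 0.08, edgeR adjusted p = 0.0387). Of the 6 siSMARCA4 libraries 4 lay below every siNT library. Against DMSO, where the range was 46.2 to 58.3 CPM, 5 of 6 lay above every library and 4-3V (47.5 CPM) lay inside.

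These 3 calls lay near the threshold. In the 12 fits that left out 1 library, MORC2 was called in 4, DNMT1 in 6 and DNMT3A in 4, and the edgeR adjusted p reached 0.0892, 0.0748 and 0.0661. None of the 3 was called without siNT library 4-1VM, without siNT library 4-2VM, without siSMARCA4 library 4-2VM or without siSMARCA4 library 4-3V. Only DNMT1 was called without siNT 2-1VM, siNT 4-3VM or siSMARCA4 2-3V, only MORC2 without siSMARCA4 2-1VM and only DNMT3A without siSMARCA4 2-3VM. With the libraries of siRNA number 2 alone, or of number 4 alone, none of the 3 was called. MORC2 was also not called with V or VM as a covariate, with VM libraries alone or with only the 2 groups compared. DNMT1 and DNMT3A were called in each of these. All 3 stayed negative in all 24 alternatives, between -0.10 and -0.32 for MORC2, -0.15 and -0.35 for DNMT1 and -0.24 and -0.44 for DNMT3A.

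**Figure D3:**
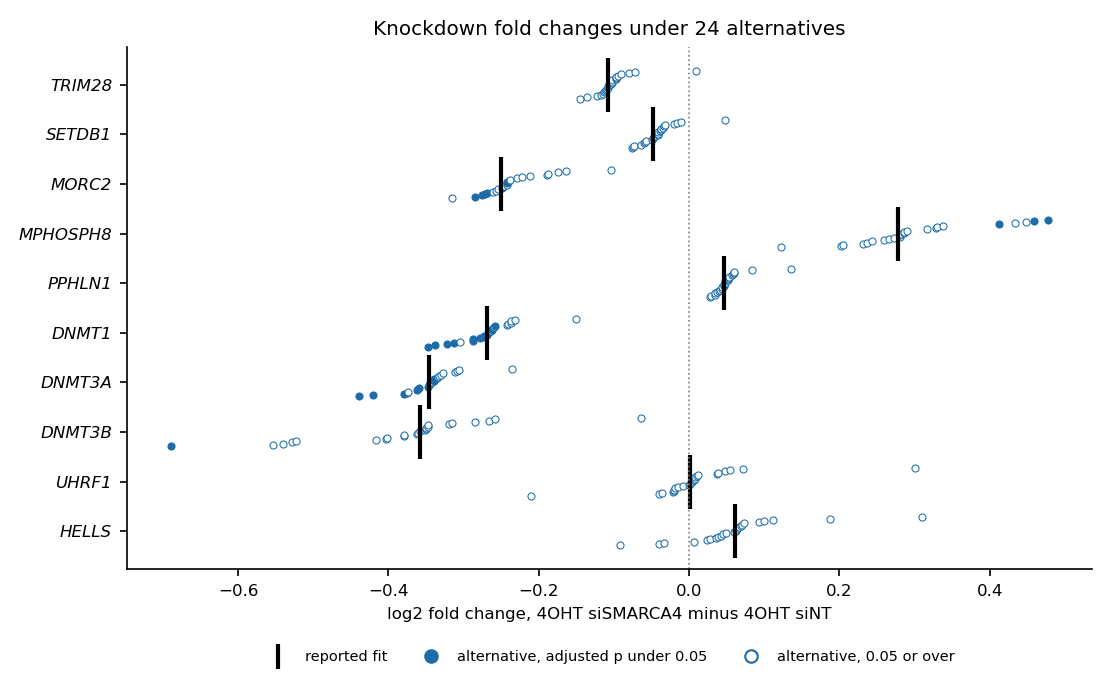
Log2 fold change of each gene for siSMARCA4 against siNT in 4OHT, as reported (black bar) and under 24 alternatives (circles, filled where the adjusted p was under 0.05). MORC2, DNMT1 and DNMT3A stay below 0 throughout and are filled in 9, 15 and 13 alternatives, and UHRF1 and HELLS lie on both sides of 0.

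MPHOSPH8 was higher in each siRNA 2 library than in each siRNA 4 library, in siSMARCA4 and in 4OHT siNT alike, and lower in each siRNA 2 library than in each siRNA 4 library of DMSO siNT. With the knockdown it ranged from 46.8 to 114 CPM with a median of 97.7, against 64.1 to 88.0 CPM in siNT. The 3 libraries with siRNA number 2 held 106, 113 and 114 CPM, and the 3 with number 4 held 74.7, 89.8 and 46.8 CPM. All siRNA 2 libraries lay above every siNT library, as did siRNA 4 library 4-2VM at 89.8 CPM. The log2 fold change over all libraries was 0.28 (95% interval -0.10 to 0.65, edgeR adjusted p = 0.281). It was 0.46 (edgeR adjusted p = 0.00329) with siRNA 2 libraries alone, 0.12 (edgeR adjusted p = 0.775) with siRNA 4 libraries alone, 0.48 (edgeR adjusted p = 0.0354) with VM libraries alone and 0.41 (edgeR adjusted p = 0.0381) without siSMARCA4 library 4-3V. The difference of the knockdown effect between the 2 siRNA numbers was 0.34 for MPHOSPH8 (edgeR adjusted p = 0.541).

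That difference was tested for every member, because the labels number the siRNA, without saying how 2 and 4 differ. It was called for 0 of 10 members by edgeR, beside 1.06% of all genes, and for 0 by DESeq2. At an unadjusted p under 0.05 it was found for 1, UHRF1, with a difference of 0.51 on the log2 scale (siRNA 2 minus siRNA 4, edgeR adjusted p = 0.171). The siNT libraries carry the numbers 2 and 4 as well, and each siSMARCA4 number was compared with the siNT libraries of that number. No label says that a shared number makes a matched control.

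UHRF1 and HELLS did not pass the test with the knockdown. The log2 fold changes were 0.00 (95% interval -0.22 to 0.22) for UHRF1 and 0.06 (95% interval -0.23 to 0.35) for HELLS, with edgeR adjusted p = 0.996 and 0.798. Of the 13 S-phase and mitosis markers 3 were higher with the knockdown, CDK1 (1.39), RRM2, a subunit of ribonucleotide reductase (0.90), and TOP2A (0.68), and 1 was lower, the replication helicase subunit MCM3 (-0.55). These 4 are 30.8% of the markers, beside 24.2% of all genes called. PPHLN1 ranged from 38.9 to 41.8 CPM (median 40.5), with 0.05 (95% interval -0.07 to 0.16, edgeR adjusted p = 0.578). TRIM28 ranged from 287 to 316 CPM (median 303), with -0.11 (95% interval -0.23 to 0.01, edgeR adjusted p = 0.196), and SETDB1 from 16.4 to 19.9 CPM (median 18.3), with -0.05 (95% interval -0.19 to 0.09, edgeR adjusted p = 0.656). DNMT3B ranged from 0.607 to 1.45 CPM (median 0.955), with -0.36 (95% interval -0.83 to 0.12, edgeR adjusted p = 0.272). Its 3 siRNA 2 libraries were 0.809, 0.638 and 0.607 CPM, the lowest of the series. With siRNA 2 libraries alone its log2 fold change was -0.69 (edgeR adjusted p = 0.0390) and with siRNA 4 libraries alone -0.06 (edgeR adjusted p = 0.919).

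**Figure D4:**
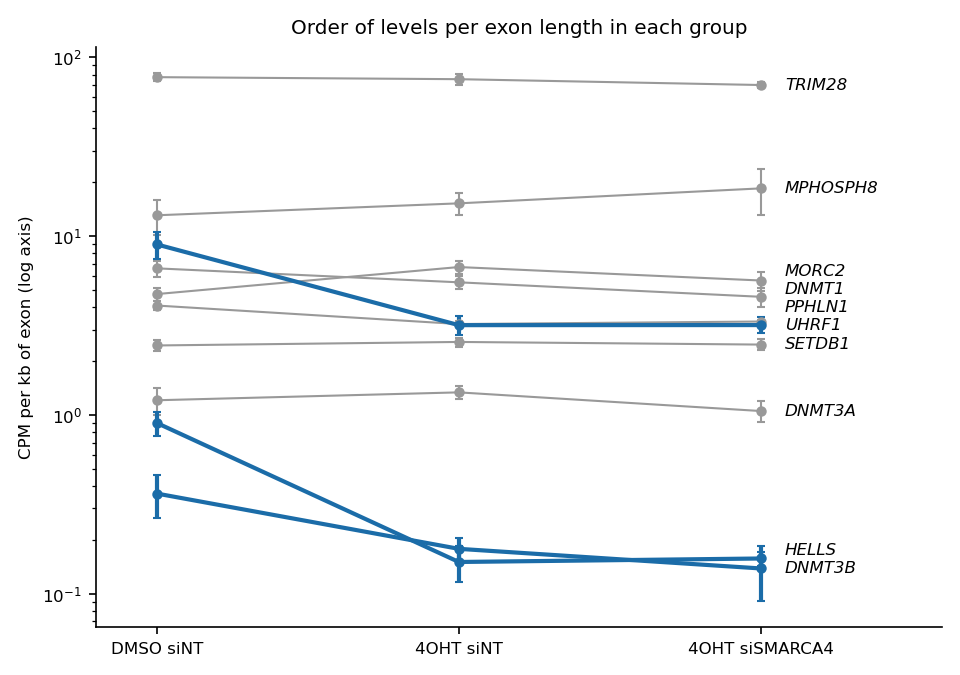
Mean level per kb of exon of each gene in the 3 groups, on a log axis, with the SD over libraries as bars. UHRF1, HELLS and DNMT3B are drawn in blue. UHRF1 drops from the third to the sixth place between DMSO and 4OHT. HELLS and DNMT3B share the lowest places in all 3 groups.

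Levels of different genes can be compared per length, as CPM per kb of all annotated exons of a gene. TRIM28 led by a wide margin at 77.4 ± 3.86 CPM per kb in DMSO, 75.4 ± 5.13 in 4OHT siNT and 69.9 ± 2.62 in siSMARCA4. MPHOSPH8 took the second place in every group, at 13.1 ± 2.92, 15.2 ± 2.16 and 18.5 ± 5.36 CPM per kb. Its range overlapped with that of UHRF1 in DMSO, in the third place at 8.98 ± 1.52. In 4OHT siNT UHRF1 was in the sixth place at 3.18 ± 0.389, next to PPHLN1 at 3.22 ± 0.139, and the ranges of the pair overlapped.

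DNMT1 (6.60 ± 0.685) stood above MORC2 (4.74 ± 0.413) in DMSO without overlap and below it in both 4OHT groups, where the ranges overlapped. SETDB1 took the seventh and DNMT3A the eighth place in every group, with no overlap between them. HELLS (0.901 ± 0.141 CPM per kb) was above DNMT3B (0.363 ± 0.0991) in every DMSO library. In 4OHT siNT they were 0.150 ± 0.0343 and 0.178 ± 0.0261 and could not be ordered. The exon length counts every annotated transcript, including ones these cells may not use.

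Within groups some members varied together. With each group centred on its mean, DNMT1 and DNMT3A had r = 0.89 over the 17 libraries, SETDB1 and DNMT3A 0.79 and SETDB1 and DNMT1 0.76. MPHOSPH8 and DNMT3B had r = -0.72. These correlations are across libraries that share depth and preparation and are given as a description. For DNMT1, DNMT3A and SETDB1, DMSO library 4-3VM was the lowest of its group and siSMARCA4 library 4-2V the highest of its group. How far single libraries carry these values was not tested. The genes most like DNMT1 were FLNA, an actin crosslinker (r = 0.968), HNRNPUL1, an RNA-binding protein (0.965), and GSE1 (0.960), and those most like MPHOSPH8 were PDCD5 (0.963), the tubulin cofactor TBCA (0.958) and SYF2, a splicing factor (0.954). MORC2 was followed most closely by the co-chaperone STIP1 (0.963), TRIM41 (0.961) and TNKS1BP1 (0.958), and PPHLN1 by PPWD1 (0.973), the esterase ESD (0.971) and NUP107 of the nuclear pore (0.969). For DNMT3B they were ZHX3 (0.966), RAPGEF2 (0.958) and IQSEC1 (0.958), and for DNMT3A the highest r was with TCAF1P1 (0.944) and PKD1P1 (0.927), pseudogenes that share sequence with their parent genes, and with YEATS2 (0.922). SETDB1 gave TCF20 (0.869), KATNIP (0.867) and SETD1A (0.838), and TRIM28 gave USP21 (0.858), DNAJC4 (0.852) and GDPD3 (0.848).

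Genes that work beside the members were counted by list. Of 14 genes listed as writers and readers of H3K9 methylation or as their partners, 7 were lower and 4 higher with 4OHT. The median log2 fold change was -0.31, and 11 of 14 were called, beside 54.4% of all genes. The list includes genes that do not write this mark, CHD4 and MBD1 among them. SETDB2, a relative of SETDB1, changed by -0.88 (SE 0.12), CBX1, the HP1 beta protein that binds methylated H3K9, by -0.68 (SE 0.10), SUV39H1, which methylates pericentric H3K9, by -0.54 (SE 0.09), and CHD4, the remodeller of the NuRD complex, by 0.66 (SE 0.11). With the knockdown 5 were lower and 2 higher (median -0.14), beside 24.2% of all genes called. WIZ (-0.35, SE 0.10) and EHMT1 (-0.26, SE 0.07), which belong to one H3K9 methyltransferase complex, were lower without overlap. So was MBD1 (-0.24, SE 0.06), which binds methylated DNA. Of all genes, 12% had no overlap in this comparison, in either direction. EHMT2 and CHD4 were also lower, and CBX3 and ZNF644 were higher, each with overlapping libraries.

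Of 7 enzymes that remove H3K9 methylation, 4 were higher and 0 lower with 4OHT (median 0.26), beside 27% of all genes higher. They were KDM3A (0.62, SE 0.08), KDM4B (0.53, SE 0.07), KDM4C (0.18, SE 0.07) and, with overlapping libraries, KDM1A (0.26, SE 0.08). With the knockdown 4 were lower and 0 higher (median -0.27), beside 13.8% of all genes lower. PHF8 (-0.48, SE 0.13), KDM4B (-0.38, SE 0.07) and KDM1A (-0.30, SE 0.07) were lower without overlap and KDM4A (-0.27, SE 0.08) with it, where 12% of all genes had no overlap in either direction. KDM4B was 61.1 ± 6.21 CPM in DMSO, 87.9 ± 3.69 CPM in 4OHT siNT and 67.8 ± 5.35 CPM in siSMARCA4.

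Of 7 HUSH partners and MORC proteins, 1 was lower and 2 higher with 4OHT, and 1 lower and 1 higher with the knockdown. The shares called, 42.9% and 28.6%, stood beside 54.4% and 24.2% of all genes. MORC4, a relative of MORC2, was lower in both comparisons, at -0.39 (SE 0.08) with 4OHT and -0.43 (SE 0.08) with the knockdown. It went from 46.9 ± 4.34 to 35.7 ± 1.78 and 26.5 ± 3.16 CPM and no library of any group overlapped with another group. MORC3 was higher in both comparisons, by 0.28 and 0.29, and TASOR2 was higher with 4OHT, by 0.37. TASOR, the scaffold of HUSH, did not pass either test, at -0.19 (edgeR adjusted p = 0.123) and 0.08 (edgeR adjusted p = 0.600).

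Of 14 partners and readers of DNA methylation 13 were tested, since DNMT3L had 3 counts over all libraries. With 4OHT 3 were lower and 4 higher (median -0.09), a share of 53.8% that is close to the 54.4% of all genes called. The 3 were CDCA7 (-5.41, SE 0.31), the zinc finger partner of HELLS, its relative CDCA7L (-2.19, SE 0.13), and PCNA (-0.64, SE 0.12), the sliding clamp that DNMT1 binds. CDCA7 was 7.59 ± 1.96 CPM in DMSO and 0.176 ± 0.0412 CPM in 4OHT siNT. Of the 4 higher, USP7, the deubiquitinase that binds DNMT1 and UHRF1, had the largest change among those without overlap at 0.33 (SE 0.06). With the knockdown 1 was called, ZBTB4, lower at -0.41 (SE 0.09), which is 7.69% of the list beside 24.2% of all genes.

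Of 4 enzymes of DNA demethylation 2 were called with 4OHT, a share close to the 54.4% of all genes. TET1 fell by 2.87 on the log2 scale, from 1.67 ± 0.526 to 0.225 ± 0.0439 CPM. TET3 rose by 0.90, from 4.69 ± 1.15 to 8.76 ± 1.26 CPM. With the knockdown 2 of the 4 were called, beside 24.2% of all genes. TDG, the glycosylase that removes oxidised methylcytosine, rose from 29.3 ± 4.16 to 39.7 ± 2.77 CPM (0.44, SE 0.09). Its libraries did not overlap between the groups, where 12% of all genes did not. TET3 was lower (-0.53, SE 0.17).

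Germline genes that promoter methylation keeps off in somatic cells were looked up as a readout of methylation loss. Of 16 listed, 1 passed the filter, SYCP3, and it was not called in either comparison (0 called, and 0 at an unadjusted p under 0.05), nor by DESeq2. It was 0.193 CPM in DMSO, 0.168 CPM in 4OHT siNT and 0.280 CPM in siSMARCA4. The other 15 had between 0 and 106 counts over all 17 libraries, the highest being SOHLH2 with 61, 18 and 27 counts in the 3 groups. When the filter was left off, SOHLH2 was called lower with 4OHT (-1.86, edgeR adjusted p = 0.000657), and with siRNA 4 libraries alone it passed the filter and was called too (-1.92, edgeR adjusted p = 0.0129). Also without the filter, DAZL (1, 11 and 16 counts in the 3 groups) gave 2.67 with 4OHT (edgeR adjusted p = 0.0505) and HORMAD1 (3, 20 and 36 counts) gave 2.39 (edgeR adjusted p = 0.0601), neither of them called.

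Repeat subfamilies that these silencers are known to act on were described in the same fit, with adjustment over 1026 subfamilies. With 4OHT 16.9% of all subfamilies were called, 10.1% higher and 6.73% lower. Of 7 endogenous retrovirus subfamilies 5 were higher, in a list chosen with earlier results of these data known. LTR7 with HERVH-int and LTR12C with HERV9-int belong to the same elements, so the 5 are not separate. HERVH-int was 5.87, 9.29, 8.26, 6.27 and 6.44 CPM in DMSO and 45.8 to 84.9 CPM (median 66.6) in 4OHT siNT, and no library of one group reached the other. This change was 3.15 (log2, SE 0.31), with an edgeR adjusted p of 6.28e-07. LTR7, the promoter of HERVH, changed by 1.91 (SE 0.12) and HERV9-int by 0.96 (SE 0.19). LTR12C, the promoter of HERV9-int, changed by 0.88 (SE 0.14) and THE1B by 0.32 (SE 0.08). None of these overlapped between the groups, where 39.6% of all genes did not, and the share of all subfamilies was not counted. LTR5_Hs and HERVK-int did not pass the test.

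Of 6 SVA subfamilies, composite elements found in hominoids, 2 were higher with 4OHT. SVA_B was 1.68, 2.41, 1.63, 1.67 and 2.15 CPM in DMSO and 6.02 to 7.77 CPM (median 6.95) in 4OHT siNT (1.85, SE 0.12, edgeR adjusted p = 2.50e-09), and SVA_F changed by 0.50 (SE 0.14). SVA_B was called in 22 of 22 alternatives and SVA_F in 14, with values from 0.18 to 0.69, and SVA_F was not called with VM libraries alone (0.36, edgeR adjusted p = 0.0554), with siRNA 4 libraries alone (0.18, edgeR adjusted p = 0.595) or without any 1 of DMSO 2-1V, 2-2V, 2-2VM and 4-2VM or siNT 2-3VM. The 4 young L1 subfamilies, L1HS, L1PA2, L1PA3 and L1PA4, gave log2 fold changes between -0.19 and 0.23, with 0 calls in either comparison by edgeR, 0 at an unadjusted p under 0.05 and 0 by DESeq2. L1PA3 was called higher with 4OHT in 4 of 22 alternatives, among them V or VM as a covariate (0.31, edgeR adjusted p = 0.0259), VM libraries alone (0.34, edgeR adjusted p = 0.0129) and the fit without DMSO library 2-2V (0.30, edgeR adjusted p = 0.0128). With the knockdown HERVH-int and SVA_B did not pass the test, at -0.35 (edgeR adjusted p = 0.359) and 0.06 (edgeR adjusted p = 0.752). With VM libraries alone HERVH-int was called lower, at -1.07 (edgeR adjusted p = 0.00833). In siSMARCA4 it was 46.4, 95.2 and 69.4 CPM in the V libraries and 33.2, 33.4 and 24.3 CPM in the VM libraries.

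**Figure D5:**
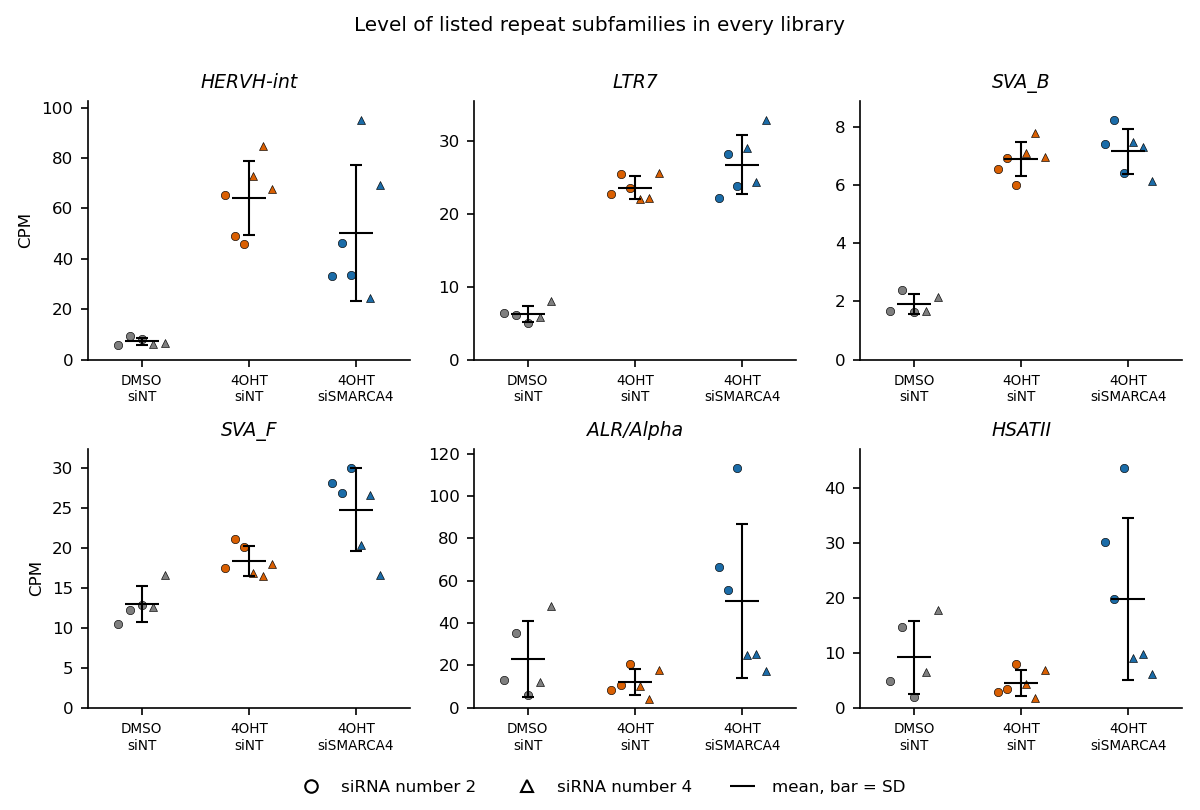
Level of 6 listed repeat subfamilies in every library, in CPM (linear axes that start at 0). Symbols, means and SD bars are as for the genes. HERVH-int, LTR7 and SVA_B lie higher in both 4OHT groups than in DMSO, and ALR/Alpha and HSATII are highest in the siSMARCA4 libraries with siRNA number 2.

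With the knockdown the median of all subfamilies was itself shifted, by 0.25 on the log2 scale, and 20.4% were called, 19.4% higher and 0.975% lower. Among the listed targets 4 of 19 were higher and 0 lower. They were SVA_F (0.43, SE 0.13, edgeR adjusted p = 0.0280), HERV9-int (0.49, SE 0.17, edgeR adjusted p = 0.0482) and both satellites, ALR/Alpha (2.06, SE 0.52, edgeR adjusted p = 0.0126) and HSATII (2.12, SE 0.54, edgeR adjusted p = 0.0126). ALR/Alpha, the centromeric alpha satellite, was 66.3, 55.8 and 113 CPM in the siRNA 2 libraries and 24.9, 25.5 and 17.3 CPM in the siRNA 4 libraries, against 4.40 to 20.9 CPM in siNT and 6.11 to 48.0 CPM in DMSO. The siRNA 2 libraries stood above every other library and the siRNA 4 libraries did not. The difference of the knockdown effect between the siRNA numbers did not pass the test for either satellite. It was 1.51 for ALR/Alpha and 1.77 for HSATII (siRNA 2 minus siRNA 4, edgeR adjusted p = 0.926 for each). Of 23 alternatives, HERV9-int was called in 7, SVA_F in 15 and each satellite in 21, and the call of both satellites was lost with either siRNA number alone. With siRNA 2 libraries alone ALR/Alpha was 2.61 and HSATII 2.77 on the log2 scale (edgeR adjusted p = 0.0631 for each), above the values over all libraries, and with siRNA 4 libraries alone they were 1.09 and 0.98 (edgeR adjusted p = 0.241 and 0.240). With siRNA 2 libraries alone 1 of the 19 was called and with siRNA 4 libraries alone 0 were. Leaving out 1 library gave 2 to 6 calls, with 2 without siNT 2-1VM, without siNT 4-2VM, without siSMARCA4 2-3V and without siSMARCA4 2-3VM.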

How the data were processed

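RNA of 17 libraries was measured by sequencing, after enrichment of poly(A) RNA according to the methods. The levels of repeats are therefore those in poly(A) RNA and not in all RNA of the cells. The authors trimmed reads with Cutadapt 4.7, aligned them to GRCh38 with HISAT2 2.2.1, keeping up to 100 alignments per read, and counted genes and repeat loci with TElocal in its reverse-stranded multi mode. The deposited values are expected counts, in which a read with several alignments is shared between loci, and they are whole numbers in the tables. Such sharing makes the levels of repeats and of genes with near copies uncertain. The methods name Ensembl release 100, but 62700 of the 62754 gene identifiers are those of GENCODE 44, which gave the symbols, exon lengths and coordinates. Every sample column was used.

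Locus counts were summed into 1258 repeat subfamilies, and genes and subfamilies were fitted in 1 table with edgeR 4.0.16 (R 4.3.3): filterByExpr with a minimum count of 10 and a minimum total of 15, TMM factors (0.949 to 1.08), and the quasi-likelihood test with 1 term per group over all 17 libraries. P-values were adjusted by Benjamini-Hochberg over 19473 genes and 1026 subfamilies separately, with a call at an adjusted p under 0.05. The fit was tested on simulated data. Between replicates of a group the chi-square per degree of freedom of counts was at least 4.68, so none was counted as a duplicate. Library totals of 39109479 to 68978119 counts limit the precision by counting error, and the intervals on fold changes come from the spread between libraries.

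The members and lists were chosen with earlier results of these data known. Named genes are SMARCA4, the members, the listed repeat subfamilies, up to 4 genes of a list and comparison with the largest change among those called without overlap, and the 3 genes most like a member over 16414 tested genes with a symbol. Listed genes named beyond that complete a count, state a gene at or near 0 or a marker, and were chosen after their values were seen. Alternatives were another scaling, DESeq2 1.42.0, other filters, genes without repeats, only the groups compared, covariates, subsets of libraries and each library left out in turn.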

Additional observations from a re-analysis of the deposited data

Results flagged for a closer look

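Among 33 groups of libraries (SMARCA4 and the 10 members in 3 groups), 2 held a library far from the others of its group by Dixon's gap test, where chance gives about 1 in 20. DNMT1 was 87.0 CPM in siSMARCA4 library 4-2V, with the nearest library at 71.5 CPM, a gap of 0.631 of the group's range. The same library had the most SMARCA4 left (127 CPM), and a link between these values was not tested. Without library 4-2V the log2 fold change of DNMT1 with the knockdown was -0.34 (edgeR adjusted p = 0.00451). This library was the highest of its group for DNMT1, so leaving it out lowers the level of the group. HELLS was 1.84 CPM in siSMARCA4 library 2-3VM, with the nearest library at 2.22 CPM, a gap of 0.658 of the range.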

How the results depend on the processing

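With 4OHT against DMSO, the calls of HELLS, UHRF1, MORC2 and PPHLN1 held in all 23 alternatives, that of DNMT3B in 22 and that of DNMT1 in 20. The exceptions were DNMT3B with siRNA 4 libraries alone (-0.71, edgeR adjusted p = 0.0908) and DNMT1 with those libraries (-0.10), with V or VM as a covariate (-0.19) and with the replicate tag as a block (-0.16, edgeR adjusted p = 0.182). Values changed sign for SETDB1 (-0.086) and DNMT3A (-0.13) with siRNA 2 libraries alone and for MPHOSPH8 (-0.25) with siRNA 4 libraries alone. Pathway genes called numbered 27 of 45 tested (60%, beside 54.4% of all genes), and 16 with siRNA 4 libraries alone. Germline genes called were 0, and 1, SOHLH2, both without a filter on low counts and with siRNA 4 libraries alone. With the knockdown, members called numbered 3, but 0 without a filter on low counts, 0 with siRNA 4 libraries alone and 0 to 3 when 1 library was left out, and with siRNA 2 libraries alone other members were called, MPHOSPH8 higher and DNMT3B lower. Pathway genes called were 16 of 45 (35.6%, beside 24.2% of all genes), and 3 with siRNA 4 libraries alone. Repeat targets called were 4, with 1 for siRNA 2 libraries alone, 0 for siRNA 4 libraries alone and 2 to 6 when 1 library was left out. Of all genes, 1198 were called with siRNA 4 libraries alone, where the fit had fewer libraries, against 4703. UHRF1 ran from -0.21 to 0.30 over the 24 alternatives. It was on the other side of 0 with the block (-0.0076) and with V or VM (-0.036) or siRNA number (-0.00075) as a covariate. It was so too with siRNA 4 libraries alone (-0.21) and in part of the leave-one-out range (-0.041 to 0.054). HELLS was so with the block (-0.034), with V or VM as a covariate (-0.040) and with siRNA 2 libraries alone (-0.092), and with those libraries TRIM28 (0.0092) and SETDB1 (0.048) were too. None of these reversals was called in either fit, and the cause was not tested. The siRNA difference was called for 207 genes, for 749 by DESeq2, for 791 without a filter and for 17 to 845 when 1 library was left out, with 0 members throughout.

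Libraries with the same replicate tag did not all deviate together, with r from -0.10 to 0.30 over 6 pairs of siSMARCA4 and siNT. Over 6 pairs of siNT and DMSO r ran from -0.45 to 0.53, so the tag was taken as a name and not as a pairing. Libraries with different tags deviated together or apart as well. For DMSO 4-3VM r was 0.61 with 4OHT siNT 2-2VM and -0.53 with 4OHT siNT 4-2VM. The reported fit holds no term for such variation across groups. The block left 2 members called with the knockdown, losing MORC2 (-0.16, edgeR adjusted p = 0.199), and 6 with 4OHT, where DNMT3A was called (0.32, edgeR adjusted p = 0.0359) and DNMT1 was not. It also called HERVH-int lower with the knockdown (-0.92, edgeR adjusted p = 0.0390) and not HERV9-int, and with 4OHT called L1PA3 higher (0.27, edgeR adjusted p = 0.0450) and not SVA_F (0.36, edgeR adjusted p = 0.116). Depth was lowest for DNMT3B (31 to 161 counts in a library) among the members and lower still for the germline genes, which limits the precision of both.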
